A study of Mus musculus with 21 samples.

Results

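Gene expression was compared between whole tumours grown from Py8119 and from Py117, a pair of mouse mammary carcinoma lines, across all genes on the array. The comparison used the 10 arrays whose sample titles name a Py8119 or a Py117 tumour, 5 of each line, out of 21 arrays in the series. Both lines are clones from mice that carry the MMTV-PyMT transgene, in which a mouse mammary tumour virus promoter drives the polyomavirus middle T oncogene in mammary epithelium. Each line is therefore 1 clone of its kind, and no result can be separated from the clone that gave it. All 10 tumours were untreated, and each grew from 1000000 cells placed in mammary fat pad 4 in a mix of saline and low-growth-factor Matrigel. They were collected on the day on which irradiation would usually have been given, and total RNA was taken from the homogenised tumour without sorting. The submitters describe Py117 as sensitive and Py8119 as resistant to radiation, with differing immune responses. The strain, age and sex of the host mice are not given in the sources used here. The other arrays were 5 tumours grown from a mixture of both lines and 3 cultures of each line in Ham's F12K medium with 5% fetal bovine serum. The mixed tumours were not compared here. They entered the estimate of the spread, the choice of probe set per gene, the background level and some alternative settings. The labels call the samples biological replicates without naming animals, so the p-values measure the spread between these samples.

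A tumour sample holds cancer cells together with host vessels, fibroblasts, fat, macrophages and lymphocytes, and its RNA is the sum of them all. In such bulk RNA, fewer cells of a type and less RNA per cell cannot be told apart. Cultures hold the cancer cells alone, so a gene that is at background in both cultures and measured in the tumours is either made by host cells or made by the cancer cells only in the animal. Interferons are cytokines that bind receptors on nearby cells and act through JAK kinases. Type I interferons lead to binding of the interferon-stimulated response element in the promoters of their target genes, and interferon-gamma, made by T and NK cells, induces immunity GTPases, antigen-presentation genes and the chemokines Cxcl9 and Cxcl10. Epithelial cells are held together by tight junctions, adherens junctions and desmosomes, and carcinoma cells that have lost them often express mesenchymal transcription factors such as Zeb1 and Snai2.

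Promoters of genes from 3 groups described here, interferon-induced, epithelial and cholesterol synthesis genes, are shown first, with the motifs searched in them. Among list members with a match before the start site, those lowest in Py8119 relative to Py117 tumours were printed. For cholesterol synthesis those highest were printed. The direction of the printed genes therefore follows from the choice. The windows ran from 250 bases before to 50 bases after the start site in RefSeq, build GRCm38.p6, and were held for 27025 genes with 1 chromosome left out. The interferon-stimulated response element was searched as TTTCNNTTT on both strands, and it was in the windows of 14 of 20 genes of the type I interferon list with a window (70.0%), 8 of 10 of the interferon-gamma list (80.0%), 4 of 16 of the MHC class I list (25.0%) and 12.1% of all genes with a window. Of the stretches printed here, Ifit1 lies at chr19:34640773-34640842 on the plus strand, Rsad2 at chr12:26456521-26456590 on the minus strand and Oasl1 at chr5:114923053-114923122 on the plus strand. Irgm2 lies at chr11:58214883-58214952, Igtp at chr11:58199486-58199555 and Gbp3 at chr3:142559974-142560043, all on the plus strand. The first 3 genes are antiviral effectors of the type I list and the others encode immunity GTPases of the interferon-gamma list. Each stretch is written 5′ to 3′ on the gene's strand, with matches to the motif or its reverse complement in capitals.
Ifit1: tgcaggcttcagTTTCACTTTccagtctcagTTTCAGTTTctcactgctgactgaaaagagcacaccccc
Rsad2: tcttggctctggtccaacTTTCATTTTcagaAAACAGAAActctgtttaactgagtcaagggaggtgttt
Oasl1: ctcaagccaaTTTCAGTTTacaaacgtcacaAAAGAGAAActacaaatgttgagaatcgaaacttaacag
Irgm2: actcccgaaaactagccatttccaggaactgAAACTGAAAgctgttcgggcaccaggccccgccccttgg
Igtp: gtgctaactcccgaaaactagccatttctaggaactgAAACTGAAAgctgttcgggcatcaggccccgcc
Gbp3: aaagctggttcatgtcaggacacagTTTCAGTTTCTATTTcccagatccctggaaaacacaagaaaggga
The stretches of Irgm2 and Igtp are near copies of each other, so the motif in one is not independent of the motif in the other.

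The E-box CACCTG, a letter string bound by the Zeb and Snail repressors among other factors, was in the windows of 10 of 16 tight junction genes (62.5%), 2 of 6 desmosome and adherens junction genes (33.3%), 4 of 11 epithelial transcription and splicing factors (36.4%) and 22.6% of all genes. The CCAAT box was in 13 of 13 cholesterol synthesis genes (100.0%), 18 of 26 cell cycle genes (69.2%) and 41.1% of all genes. A sterol regulatory element searched as TCACNCCAC was in 1 of 13 cholesterol synthesis genes (7.7%) against 1.4% of all genes, and the TEAD motif ACATTCCA was in 1 of 17 YAP and TEAD targets (5.9%) against 1.6%. Both strands were searched for each motif. F11r, a junctional adhesion molecule, lies at chr1:171437407-171437476 on the plus strand, Ocln, which encodes occludin, at chr13:100552529-100552598 on the minus strand and Epcam at chr17:87635909-87635978 on the plus strand, and their capitals mark the E-box. Msmo1 at chr8:64733597-64733666, Cyp51 at chr5:4104698-4104767 and Mvd at chr8:122443423-122443492, 3 enzymes of cholesterol synthesis on the minus strand, have the CCAAT box in capitals. A match describes letters in the window only.
F11r: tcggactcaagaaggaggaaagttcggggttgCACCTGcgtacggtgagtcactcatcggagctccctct
Ocln: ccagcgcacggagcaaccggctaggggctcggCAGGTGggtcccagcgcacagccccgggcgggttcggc
Epcam: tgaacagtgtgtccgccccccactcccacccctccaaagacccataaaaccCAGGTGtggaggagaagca
Msmo1: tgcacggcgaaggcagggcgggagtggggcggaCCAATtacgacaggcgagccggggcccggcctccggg
Cyp51: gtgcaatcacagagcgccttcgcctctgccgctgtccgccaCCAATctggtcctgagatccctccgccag
Mvd: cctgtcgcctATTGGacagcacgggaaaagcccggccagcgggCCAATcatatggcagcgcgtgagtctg

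Levels are log2 intensities, and every difference is the Py8119 tumour mean minus the Py117 tumour mean on that scale, given as value ± SE with a limma p-value adjusted over 22180 genes and called under 0.05. The 10 arrays had medians from 5.928 to 6.078. Across genes, arrays correlated at 0.969 to 0.989 within Py117, at 0.99 to 0.994 within Py8119 and at 0.93 to 0.95 between the lines, and the median gene SD was 0.2048 in Py117 and 0.1499 in Py8119 tumours. Py117 tumour 3 held the highest interferon, Py117 tumours 1, 4 and 5 the highest fat-cell and Py8119 tumour 4 the highest fibroblast levels of their groups, as given beside those results. Where a count or value is given with the fat-cell covariate, the mean of 20 fat-cell genes had been added to the fit. That mean was higher in every Py117 than in every Py8119 tumour, by a small margin (6.4 in Py117 tumour 2, 6.36 in Py8119 tumour 4). Its genes include Thrsp, the lowest of the list at -5.12, which was high in every Py117 tumour. The covariate therefore partly follows the line, and a change under it cannot be assigned to fat cells. What part fat cells had in any result was not tested. Dim probe sets left out means that genes below the median of all gene means were dropped before the fit. The background was taken as 5.31, the 95th percentile of 1390 olfactory and vomeronasal receptor genes, and a difference against a mean under it is limited by background. Of the markers that check the tissue, Epcam was at 10.06 to 10.73 in Py117 tumours and at 4.38 to 5.51, around background, in Py8119 tumours, and Krt8 (Py117 9.56 to 10.49, Py8119 9.44 to 9.70) was well above it in both. B cell, neutrophil and skeletal muscle lists were near background in both lines, with mean levels of 5.02 to 5.29, 5.61 to 6.12 and 5.33 to 5.76.

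The tumours of the lines differed widely. Of 22180 genes, 8299 were called (37.4%), 4648 higher in Py8119 tumours (21%) and 3651 lower (16.5%), and the values of the 5 and 5 tumours did not overlap for 6121 genes (27.6%). At least 2-fold, 784 were higher (3.53%) and 1169 lower (5.27%). The share of called genes that were higher was 56.01%, and 68.0% with every array centred on its median, which moved the median gene by 0.104. The cultures of the lines differed in 5942 genes (26.8%). Whether a tumour difference departed from the culture difference was tested as an interaction (the tumour difference minus the culture difference), called for 2992 genes (13.5%), of which 1664 were more positive in tumours (7.5%) and 1328 more negative (5.99%). The tumour and culture comparisons share no samples.

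Most genes that differed at least 2-fold between the tumours differed the same way between the cultured lines. Of the 784 genes at least 2-fold higher, 571 (72.83%) were called in the same direction in culture, 23 in the opposite one, and 63 (8.036%) were not above background in either culture. Of the 1169 genes at least 2-fold lower, 701 (59.97%) were called the same way in culture, 32 the opposite way and 436 (37.3%) not at all, and 216 (18.48%) were not above background in either culture. Among all 8053 genes at background in both cultures, 329 were higher (4.09%) and 694 lower (8.62%) in Py8119 tumours. Only 796 of the 8053 had a tumour mean above background in at least 1 line, so part of these calls lie between means at background, and with dim probe sets left out the counts were 42 and 93. They also moved with the level taken as background, to 182 and 347 at the 90th percentile of the receptor genes and to 753 and 1482 at the 99th.

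**Figure D1:**
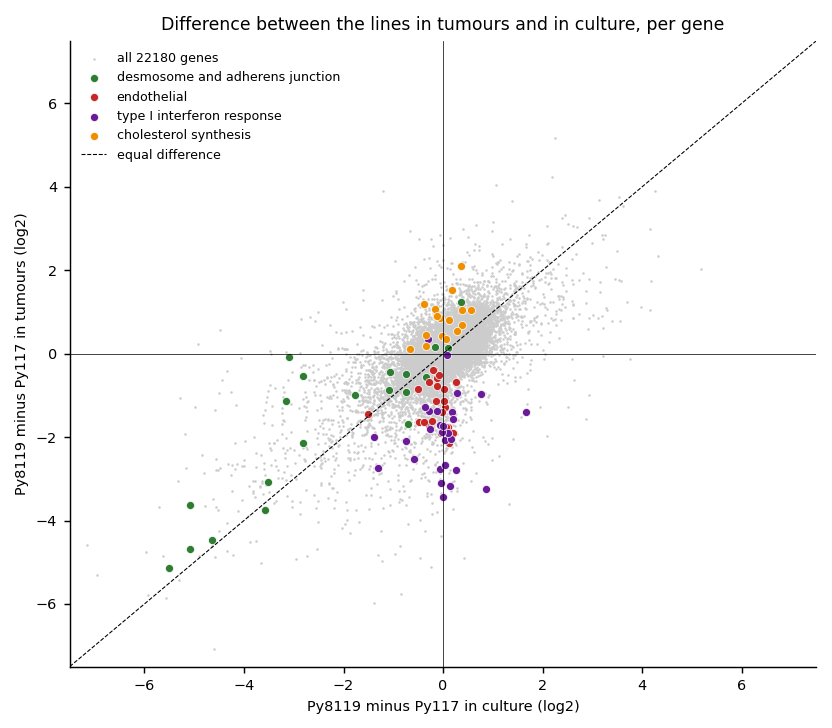
Each grey point is 1 of 22180 genes, with the Py8119 minus Py117 difference in culture (log2) on the horizontal axis and in tumours (log2) on the vertical axis, 4 gene lists in colour and the dashed line marking equal differences. Desmosome and adherens junction genes lie mostly below 0 in both settings, with a median of -0.96 in tumours against -2.29 in culture. Endothelial and type I interferon genes lie mostly below 0 in tumours and near 0 in culture. Cholesterol synthesis genes lie above 0 in tumours and near 0 in culture.

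Among the largest non-overlapping falls in Py8119 tumours, some genes differed widely in culture too and others differed mainly in tumours. Whether cancer or host cells made the RNA was not tested. The largest fall among the named genes was in Kcnma1, with means of 13.38 in Py117 and 6.13 in Py8119 tumours (difference -7.25). Its other probe set differed by -0.22. Igfbp5 had the next largest fall. Ptprf, a receptor tyrosine phosphatase of epithelial cells, was at 11.78, 11.60, 11.51, 11.45 and 11.76 in Py117 tumours 1 to 5 and 6.39, 6.16, 5.87, 6.04 and 6.46 in Py8119 tumours 1 to 5. Serpinb5, the epithelial serpin maspin, was at 9.19, 9.77, 9.63, 9.47 and 8.93 in Py117 tumours 1 to 5 and 3.81, 4.18, 4.10, 4.09 and 4.29 in Py8119 tumours 1 to 5. Every Py117 tumour was far above every Py8119 tumour for both, with differences of -5.43 ± 0.15 (adjusted p = 3.58e-14) and -5.30 ± 0.16 (adjusted p = 5.28e-14) in tumours and of -5.31 (adjusted p = 2.34e-06) and -6.96 (adjusted p = 2.34e-06) in culture. Capn6, a calpain relative that binds microtubules, was at 11.91, 11.67, 10.81, 12.12 and 12.30 in Py117 tumours 1 to 5 and 5.54, 5.80, 5.88, 5.87 and 5.81 in Py8119 tumours 1 to 5. Scrg1, a small secreted protein, was at 10.54, 10.76, 9.98, 10.26 and 10.08 in Py117 tumours 1 to 5 and 4.61, 4.63, 4.76, 4.10 and 4.69 in Py8119 tumours 1 to 5. Both were high in all 5 Py117 tumours and near or under background in the Py8119 tumours, with differences of -5.98 ± 0.20 (adjusted p = 3.07e-13) and -5.77 ± 0.19 (adjusted p = 2.08e-13). In culture both lines were low, at 6.04 ± 0.23 and 4.66 ± 0.56 (mean ± SD, n = 3) for Capn6 and at 5.30 ± 0.72 and 4.45 ± 0.59 for Scrg1. The interactions were -4.60 ± 0.39 (adjusted p = 5.18e-07) and -4.92 ± 0.40 (adjusted p = 4.5e-07).

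The 10 largest non-overlapping rises in Py8119 tumours included the YAP target Ankrd1 (difference 5.16), mesothelin, Msln (4.04), the calcium-binding S100a4 (3.76) and N-cadherin, Cdh2 (3.65), and 6 genes given here by tumour or by difference. Tfap2b, a transcription factor of the AP-2 family, was at 5.12, 5.49, 5.23, 5.5 and 5.28 in Py117 tumours 1 to 5 and 9.37, 9.26, 9.41, 8.94 and 9.20 in Py8119 tumours 1 to 5. Tenm3, a transmembrane teneurin, was at 4.93, 6.01, 4.83, 5.27 and 5.74 in Py117 tumours 1 to 5 and 9.22, 9.04, 8.97, 9.10 and 8.92 in Py8119 tumours 1 to 5. Eya1, a transcriptional coactivator and phosphatase, was at 5.73, 5.66, 6.48, 5.72 and 5.95 in Py117 tumours 1 to 5 and 9.42, 9.31, 9.32, 8.76 and 9.02 in Py8119 tumours 1 to 5. These 3 were low in all 5 Py117 tumours and high in all 5 Py8119 tumours, by 3.91 ± 0.15 (adjusted p = 1.51e-12), 3.69 ± 0.18 (adjusted p = 1.94e-11) and 3.26 ± 0.17 (adjusted p = 7.26e-11), and the cultures differed likewise, by 4.25, 3.14 and 2.94. Eno3, the muscle form of the glycolytic enzyme enolase, was at 6.61, 6.54, 6.76, 6.53 and 6.70 in Py117 tumours 1 to 5 and 10.12, 10.15, 10.11, 10.26 and 10.18 in Py8119 tumours 1 to 5. It was the sole riser of 15 skeletal muscle genes, of which 2 were higher without Py117 tumour 1 or 2. Its difference was 3.53 ± 0.08 (adjusted p = 2.7e-15), and the cultured lines differed by 3.62. Brinp3 differed by 4.24 ± 0.16 (adjusted p = 9.03e-13) in tumours and by 2.19 in culture. Dynap was at 5.86, 6.64, 6.74, 6.64 and 5.75 in Py117 tumours 1 to 5 and 10.23, 10.37, 10.38, 10.05 and 10.14 in Py8119 tumours 1 to 5. It was lower in Py117 tumours by 3.91 ± 0.17 (adjusted p = 4.59e-12), yet in culture it was high in both lines, at 12.47 ± 0.25 in Py117 and 11.27 ± 0.22 in Py8119, and its interaction was 5.11 ± 0.30 (adjusted p = 1.35e-08).

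**Figure D2:**
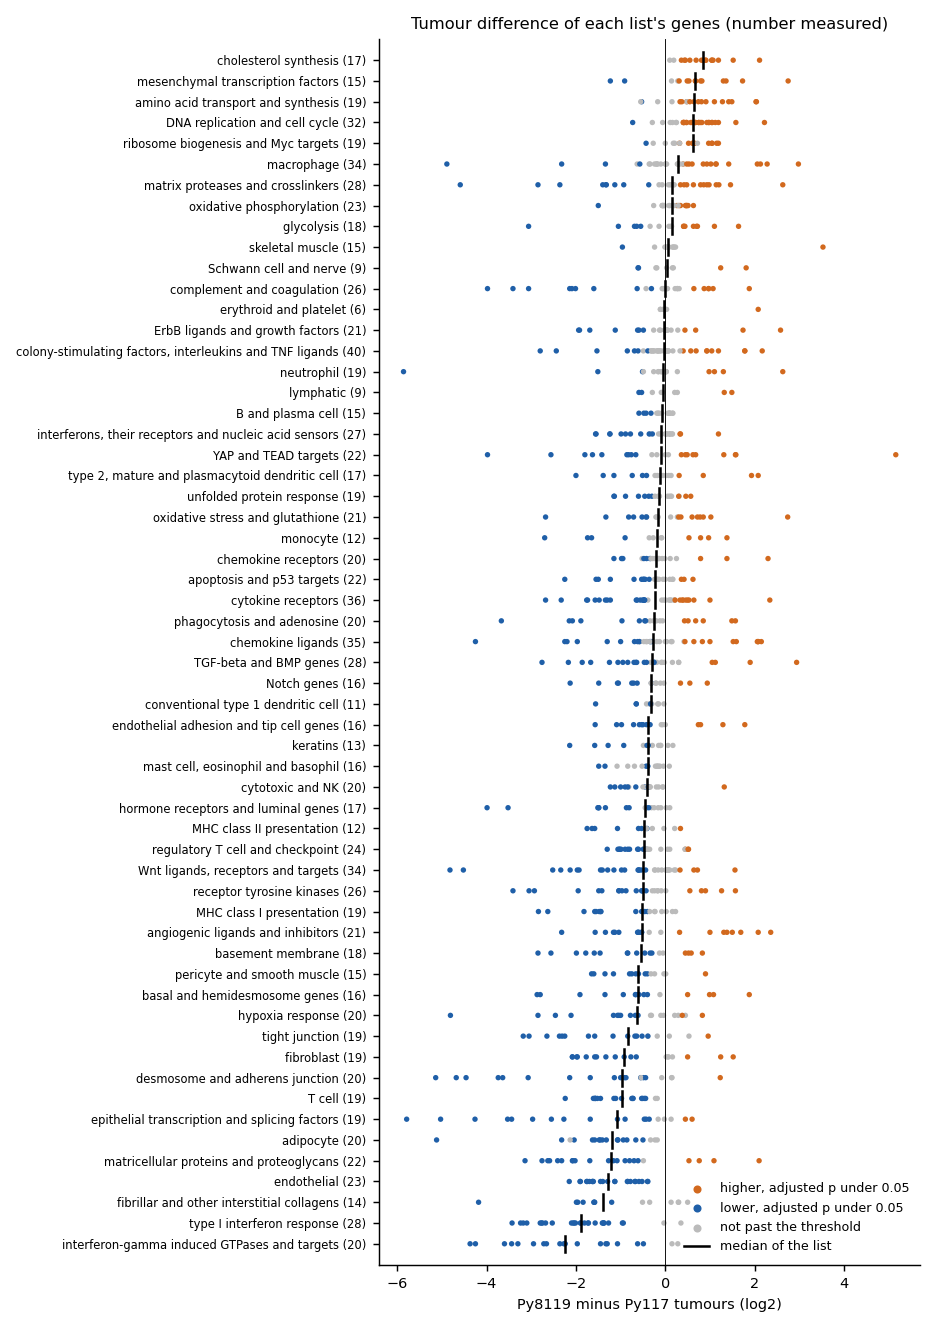
Each point is the Py8119 minus Py117 tumour difference (log2) of 1 gene, 1 row per gene list with the number measured in brackets, coloured orange for higher and blue for lower at an adjusted p under 0.05 and grey otherwise, and the black bar is the list's median. The interferon, collagen, endothelial and matricellular lists lie at the negative end with medians from -2.25 to -1.21, and cholesterol synthesis, mesenchymal factor, amino acid and cell cycle lists lie at the positive end with medians from 0.63 to 0.85.

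Interferon-induced genes were lower in Py8119 tumours across both arms of the response. Of 28 type I interferon response genes, 26 were lower and 0 higher, 24 of them at least 2-fold, with a median difference of -1.89 against 0.01 over all genes. Of 20 interferon-gamma induced GTPases and targets, 18 were lower and 0 higher, 16 at least 2-fold, with a median of -2.25. No gene of either list was higher in the main comparison, and leaving out Py117 tumour 3 brought 1 of each list to a call in that direction, Isg20 at 0.58 and Irf1 at 0.55. In culture, 3 of the type I list were higher and 2 lower in Py8119, and 5 and 1 of the interferon-gamma list, with medians of -0.01 and 0.08. The interaction was called more negative in tumours for 23 of 28 and 16 of 20.

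The mean level of the type I list was 8.61, 9.13, 10.02, 8.87 and 8.92 in Py117 tumours 1 to 5 and 7.10, 7.0, 7.06, 7.34 and 7.46 in Py8119 tumours 1 to 5. The mean of the interferon-gamma list was 7.80, 8.43, 9.84, 8.86 and 8.56 in the Py117 tumours and 6.39, 6.53, 6.69, 6.76 and 6.62 in the Py8119 tumours. Py117 tumour 3 was the highest of the 10 on both, Py117 tumour 1 the lowest of its group, and the groups did not overlap on either. Iigp1, an immunity GTPase that attacks the vacuoles of intracellular parasites, was at 10.72, 11.35, 12.41, 11.71 and 11.55 in Py117 tumours 1 to 5 and 6.61, 6.87, 7.28, 7.51 and 7.64 in Py8119 tumours 1 to 5. It was 20.6-fold lower in Py8119 tumours (-4.37 ± 0.31, adjusted p = 2.95e-09), and under background in both cultures. Gbp4, a guanylate-binding protein, was at 7.27, 8.25, 11.18, 9.36 and 8.59 in Py117 tumours 1 to 5 and 5.15, 5.42, 5.33, 5.38 and 5.37 in Py8119 tumours 1 to 5. Its Py117 values spread over more than 3 log2 units and its Py8119 values all lay close to background, with a difference of -3.60 ± 0.52 (adjusted p = 2.14e-05).

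The interferon-induced genes whose promoters are printed were lower in Py8119 tumours, the direction by which they were chosen. Irgm2 was at 9.53, 10.10, 11.13, 10.24 and 9.85 in Py117 tumours 1 to 5 and 6.46, 6.41, 6.86, 7.0 and 6.90 in Py8119 tumours 1 to 5, and its neighbour in sequence Igtp differed by -3.30 ± 0.35 (adjusted p = 5.19e-07). The Irgm2 difference was -3.44 ± 0.29 (adjusted p = 2.57e-08) and the groups lay over 2 log2 units apart. Rsad2, which encodes the antiviral enzyme viperin, was at 7.93, 8.90, 10.39, 8.21 and 8.55 in Py117 tumours 1 to 5 and 6.10, 5.89, 5.90, 6.48 and 6.19 in Py8119 tumours 1 to 5. Isg15, a ubiquitin-like modifier, was at 8.59, 9.54, 10.54, 8.88 and 9.19 in Py117 tumours 1 to 5 and 6.92, 6.95, 7.19, 7.72 and 7.67 in Py8119 tumours 1 to 5. Both were lower in Py8119 tumours without overlap, with differences of -2.68 ± 0.32 (adjusted p = 2.15e-06) and -2.06 ± 0.28 (adjusted p = 1.21e-05). Ifit1 (-3.24), Oasl1 (-2.10), Gbp3 (-2.66) and Cmpk2 (-3.18) were lower as well.

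Upstream genes and signalling factors were lower only in part. Ifng was at 5.36, 5.51, 6.66, 6.08 and 5.45 in Py117 tumours 1 to 5 and 5.49, 5.38, 5.34, 5.5 and 5.64 in Py8119 tumours 1 to 5. Py117 tumours 3 and 4 were the highest of the 10, the other 8 lay close to background, and the groups overlapped (difference -0.34 ± 0.29, adjusted p = 0.42). Ifnb1, the gene of interferon-beta, was at or under 3.86 in every tumour, under background, so a difference in it could not be seen. Of the receptor chains, Ifnar1 was higher in Py8119 tumours by 0.34 ± 0.08 (adjusted p = 0.00163), Ifnar2 lower (-0.36 ± 0.10, adjusted p = 0.00573), Ifngr2 lower (-0.55 ± 0.10, adjusted p = 0.000186), and Ifngr1 had a difference of 0.02 ± 0.10 (adjusted p = 0.936). Among the kinases that interferon receptors use, Jak1 (-1.24 ± 0.14, adjusted p = 1.43e-06) and Jak2 (-0.78 ± 0.18, adjusted p = 0.00155) were lower. The Jak2 call was lost with the fat-cell covariate, and Jak1 was also lower in Py8119 culture (-0.91, adjusted p = 0.000257). Of the factors downstream, Irf9 was at 9.62, 9.72, 9.71, 9.49 and 9.50 in Py117 tumours 1 to 5 and 7.75, 7.92, 7.95, 7.91 and 7.90 in Py8119 tumours 1 to 5, tight within each line and lower in Py8119 tumours (-1.72 ± 0.11, adjusted p = 1.31e-09). Stat2 was lower (-1.81 ± 0.21, adjusted p = 1.59e-06). Irf1, a factor directly induced by interferon-gamma, was at 8.03, 8.28, 9.64, 8.44 and 8.51 in Py117 tumours 1 to 5 and 8.61, 9.02, 8.86, 8.92 and 8.91 in Py8119 tumours 1 to 5. Irf1 overlapped between the groups and Py117 tumour 3 was the highest (difference 0.28 ± 0.22, adjusted p = 0.374), as for the feedback inhibitor Socs1 (0.15 ± 0.23, adjusted p = 0.703).

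Sensors of nucleic acid split. Among 27 genes of interferons, receptors and sensors, 3 were higher and 10 lower, with a median of -0.09. Cgas, the cytosolic DNA sensor, was at 5.14, 5.25, 5.38, 6.04 and 5.02 in Py117 tumours 1 to 5 and 6.36, 6.55, 6.65, 6.43 and 6.78 in Py8119 tumours 1 to 5. It was higher in every Py8119 tumour, by 1.19 ± 0.15 (adjusted p = 5.12e-06), and higher in Py8119 culture by 2.38 (adjusted p = 5.64e-06). Sting1, its downstream adaptor, had a difference of -0.15 ± 0.11 (adjusted p = 0.337). Ifi204, of the same 27 genes, was called lower, with a difference of -1.55, or -2.65 with the fat-cell covariate. The RNA sensors were lower, with Ddx58, which encodes RIG-I, at 10.22, 10.49, 10.80, 10.44 and 10.62 in Py117 tumours 1 to 5 and 8.53, 8.39, 8.41, 8.56 and 8.64 in Py8119 tumours 1 to 5. Its groups did not overlap and differed by -2.01 ± 0.10 (adjusted p = 5.64e-11), and Ifih1, which encodes MDA5, differed by -2.75 ± 0.17 (adjusted p = 4.49e-10) and Tlr3 (-1.56 ± 0.15, adjusted p = 1.22e-07). All 3 RNA sensors were lower in Py8119 culture too, with differences of -1.38, -1.31 and -2.37. Ddx58 and Ifih1 are members of the type I interferon list and are not counted among the 27 genes. Ifnlr1, the receptor chain for interferon-lambda, was lower (-1.24 ± 0.11, adjusted p = 6.9e-08).

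**Figure D3:**
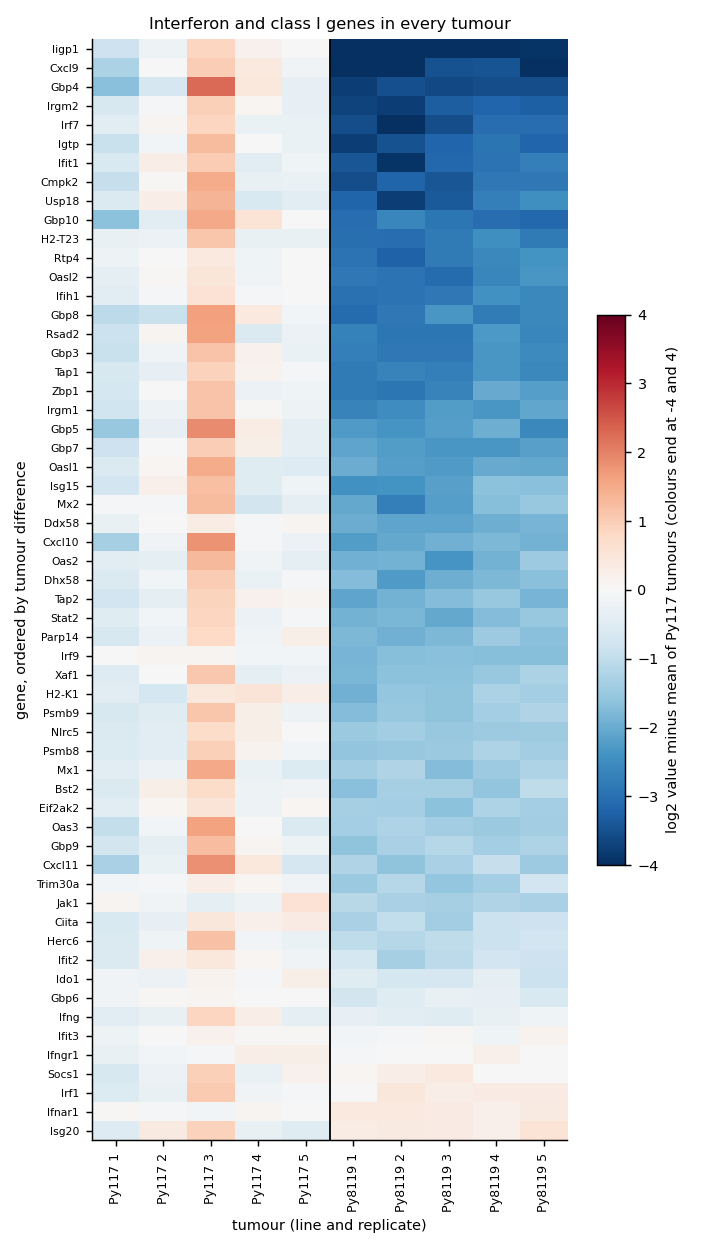
Colours give each tumour's log2 value minus the mean of the Py117 tumours (blue lower, red higher, ending at -4 and 4) for interferon-induced, class I and interferon receptor genes in rows, ordered by difference, and the 10 tumours in columns. Py117 tumour 3 is the reddest column, the Py8119 columns are blue from Iigp1 down to Gbp6, and Ifng, Ifit3, Ifngr1, Socs1, Irf1, Ifnar1 and Isg20 at the foot are pale apart from Py117 tumour 3.

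Some interferon-induced genes differed in opposite directions in culture and in tumours. Lgals3bp, a secreted glycoprotein, was at 11.68, 11.84, 12.32, 11.74 and 11.76 in Py117 tumours 1 to 5 and 10.25, 10.33, 10.12, 10.40 and 10.42 in Py8119 tumours 1 to 5. All Py8119 tumours were lower (-1.57 ± 0.13, adjusted p = 2.72e-08), whereas in culture Py8119 was higher, at 9.33 ± 0.20 against 6.45 ± 0.07, and the interaction was -4.44 ± 0.19 (adjusted p = 3.72e-10). Bst2, which encodes the viral tether tetherin, was lower in Py8119 tumours (-1.39 ± 0.21, adjusted p = 2.69e-05) and higher in Py8119 culture by 1.66 (adjusted p = 8.39e-05). Cxcl10, a chemokine for T and NK cells, was lower in tumours (-1.97 ± 0.41, adjusted p = 0.000709) and higher in culture by 2.08 (adjusted p = 6.6e-05). Ccl5, made by T cells among others, was at 9.61, 9.52, 10.88, 10.55 and 10.12 in Py117 tumours 1 to 5 and 8.84, 9.15, 9.22, 9.26 and 9.22 in Py8119 tumours 1 to 5. Its tumour groups did not overlap (difference -1.0 ± 0.25, adjusted p = 0.00376), and in culture Py8119 was higher by 2.93 (adjusted p = 3.43e-05).

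Antigen presentation genes were lower in Py8119 tumours, the peptide transporters among them. Of 19 MHC class I genes, 12 were lower and 0 higher, with a median of -0.53, and without Py117 tumour 3 there was 1 higher, Psmb10. Tap2, part of the peptide transporter, was at 7.67, 8.08, 9.33, 8.62 and 8.56 in Py117 tumours 1 to 5 and 6.35, 6.57, 6.70, 6.94 and 6.58 in Py8119 tumours 1 to 5. It did not overlap between the groups, with a difference of -1.82 ± 0.23 (adjusted p = 5.59e-06), as for Tap1 (-2.63 ± 0.25, adjusted p = 1.44e-07), the immunoproteasome subunits Psmb8 (-1.44 ± 0.22, adjusted p = 3.67e-05) and Psmb9 (-1.48 ± 0.26, adjusted p = 0.000171) and the class I transactivator Nlrc5 (-1.45 ± 0.22, adjusted p = 3.52e-05). Psmb10, the third inducible subunit, had a difference of 0.23 ± 0.24 (adjusted p = 0.521), and 0.52 without that tumour. B2m, the light chain of class I, was at 13.14, 13.15, 13.42, 13.49 and 13.43 in Py117 tumours 1 to 5 and 12.88, 12.91, 12.87, 13 and 12.94 in Py8119 tumours 1 to 5. The shift was small and without overlap, -0.40 ± 0.09 (adjusted p = 0.00107), and in culture B2m was higher in Py8119 by 0.71 (adjusted p = 0.0011). Of 12 class II genes, 7 were lower and 1 higher, with a median of -0.47, and the riser, Ifi30 (0.34 ± 0.12, adjusted p = 0.0409), lost its call when any of Py117 tumours 1, 2 and 4 or Py8119 tumours 1, 2 and 5 was left out. The chains H2-Aa (-1.64 ± 0.17, adjusted p = 3.99e-07), H2-Ab1 (-1.58 ± 0.18, adjusted p = 1.82e-06) and H2-Eb1 (-1.75 ± 0.20, adjusted p = 1.8e-06) and the class II transactivator Ciita (-1.07 ± 0.20, adjusted p = 0.000293) were the lowest of that list.

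**Figure D4:**
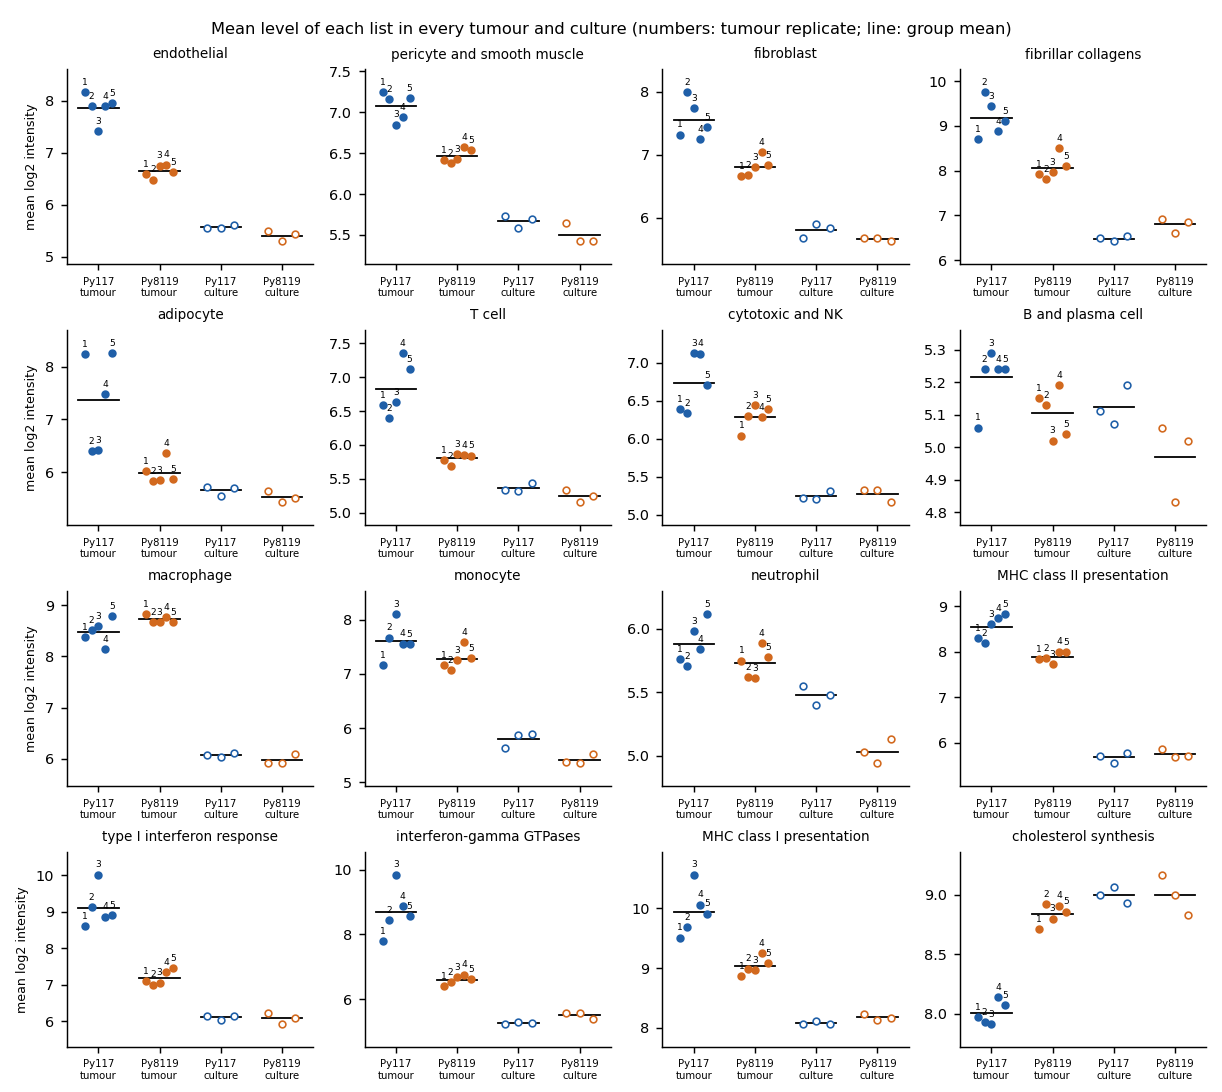
Each panel gives the mean log2 intensity of a gene list in every Py117 (blue) and Py8119 (orange) tumour (filled points with the replicate number) and culture (open points), with a line at each group's mean. Endothelial, T cell, interferon, MHC and collagen levels do not overlap between the tumour groups, the macrophage, monocyte, B cell and neutrophil levels do, and the cholesterol synthesis level of Py8119 tumours, 8.71 to 8.92, overlaps that of the cultures, 8.83 to 9.17.

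Chemokines went both ways. Of 35 ligands, 10 were higher and 11 lower (7 with dim probe sets left out) in Py8119 tumours, with a median of -0.28. Cxcl9, which attracts T cells through Cxcr3, was at 10.52, 11.78, 12.76, 12.18 and 11.64 in Py117 tumours 1 to 5 and 6.73, 7.06, 8.29, 8.33 and 7.2 in Py8119 tumours 1 to 5. The gap was over 2 log2 units between the closest tumours, with a difference of -4.25 ± 0.38 (adjusted p = 7.19e-08). Cxcr3 itself differed by -0.42 ± 0.12 (adjusted p = 0.00864), a call lost with the fat-cell covariate. Ccl12, a monocyte attractant that acts on Ccr2, was at 6.88, 7.37, 8.74, 5.92 and 6.77 in Py117 tumours 1 to 5 and 9.04, 9.21, 9.41, 8.86 and 9.47 in Py8119 tumours 1 to 5. Py117 tumour 3 was the highest Py117 tumour and came close to the lowest Py8119 tumour, and the difference was 2.06 ± 0.35 (adjusted p = 9.99e-05). Ccl7 was higher by 1.59 ± 0.30 (adjusted p = 0.000289) and Ccl2 by 2.15 ± 0.36 (adjusted p = 9.55e-05), each with Py117 tumour 3 inside the Py8119 range. Cxcl12, a stromal chemokine, was at 7.91, 7.64, 7.14, 7.82 and 7.96 in Py117 tumours 1 to 5 and 9.27, 9.35, 9.25, 8.98 and 9.20 in Py8119 tumours 1 to 5, higher without overlap by 1.52 ± 0.14 (adjusted p = 1.11e-07). Ccl17, made by dendritic cells and attracting T helper cells, was higher by 2.08 ± 0.45 (adjusted p = 0.00112) with Py117 tumour 5 inside the Py8119 range, and Ccl11, the eosinophil attractant eotaxin, was lower (-2.20 ± 0.40, adjusted p = 0.000205). With the fat-cell covariate 6 ligands were higher in place of 10, and Ccl2, Ccl7 and Ccl12 lost their call at 1.02, 0.73 and 1.05.

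Csf3, Cxcl5 and Cxcl16 differed more in culture than in tumours. Csf3, the granulocyte growth factor, was at 9.01 ± 0.20 in Py117 and 5.53 ± 0.49 in Py8119 culture, and at 5.0 to 5.42 in all 10 tumours. The tumour difference was 0.07 ± 0.11 (adjusted p = 0.702) and the interaction 3.55 ± 0.24 (adjusted p = 6.28e-08). Cxcl5 was higher in Py117 culture, at 9.80 against 6.76, and had a tumour difference of -0.43 ± 0.24 (adjusted p = 0.181). Cxcl16, a membrane-bound chemokine, differed by -4.44 in culture and by -0.62 ± 0.13 (adjusted p = 0.000555) in tumours. Among 19 neutrophil genes, 4 were higher (1 with dim probe sets left out) and 3 lower, shares near the 21% and 16.5% of all genes. The defining markers S100a8 (4.18 to 4.93 over the 10 tumours) and Ly6g (3.21 to 4.05) were under background in every tumour. The large fall in that list was Lcn2 (difference -5.86), which the cultures shared (-5.56).

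Both ligands of the macrophage growth factor receptor were higher in Py8119 tumours. Csf1, the macrophage growth factor, was at 8.54, 8.96, 9.21, 8.86 and 8.89 in Py117 tumours 1 to 5 and 10.86, 10.81, 10.65, 10.49 and 10.54 in Py8119 tumours 1 to 5. Both lines were high in culture, at 10.61 ± 0.09 and 10.94 ± 0.04, and the Py117 tumours were lower than either, with a tumour difference of 1.78 ± 0.12 (adjusted p = 1.11e-09) and an interaction of 1.44 ± 0.18 (adjusted p = 3.36e-05). Il34, the second ligand of the same receptor, was at 6.41, 6.61, 6.43, 6.75 and 6.66 in Py117 tumours 1 to 5 and 8.86, 8.74, 8.70, 8.73 and 8.66 in Py8119 tumours 1 to 5. The groups did not overlap and differed by 2.17 ± 0.09 (adjusted p = 6.33e-12). Csf2, the granulocyte-macrophage growth factor, was under background in all 10 tumours. Il33, an alarmin of stromal and endothelial cells, was at 10.27, 10.01, 8.58, 9.64 and 11.15 in Py117 tumours 1 to 5 and 7.25, 7.04, 7.31, 7.08 and 6.97 in Py8119 tumours 1 to 5. It was the lowest of 40 cytokine genes, with a difference of -2.80 ± 0.40 (adjusted p = 1.96e-05), with Py117 tumour 3 the nearest to the Py8119 range. Of these 40 genes, 10 were higher and 7 lower, shares near the 21% and 16.5% of all genes. Their median was -0.03, and 5 were higher with the fat-cell covariate. Tnfsf10, the death ligand TRAIL, and Tnfsf13b, the B cell factor BAFF, were lower, with differences of -2.44 ± 0.25 (adjusted p = 3.14e-07) and -1.53 ± 0.18 (adjusted p = 1.43e-06). Il6 was at 2.90 to 3.47 in every tumour, and Tgfb1 had a difference of 0.16 ± 0.11 (adjusted p = 0.282). Of 36 cytokine receptors, 10 were higher (5 with the fat-cell covariate) and 17 lower, led by Il18r1 (-2.68 ± 0.26, adjusted p = 1.91e-07) and Lifr (-2.33 ± 0.08, adjusted p = 2.41e-13), which were both lower in Py8119 culture (-4.25 and -2.41).

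**Figure D5:**
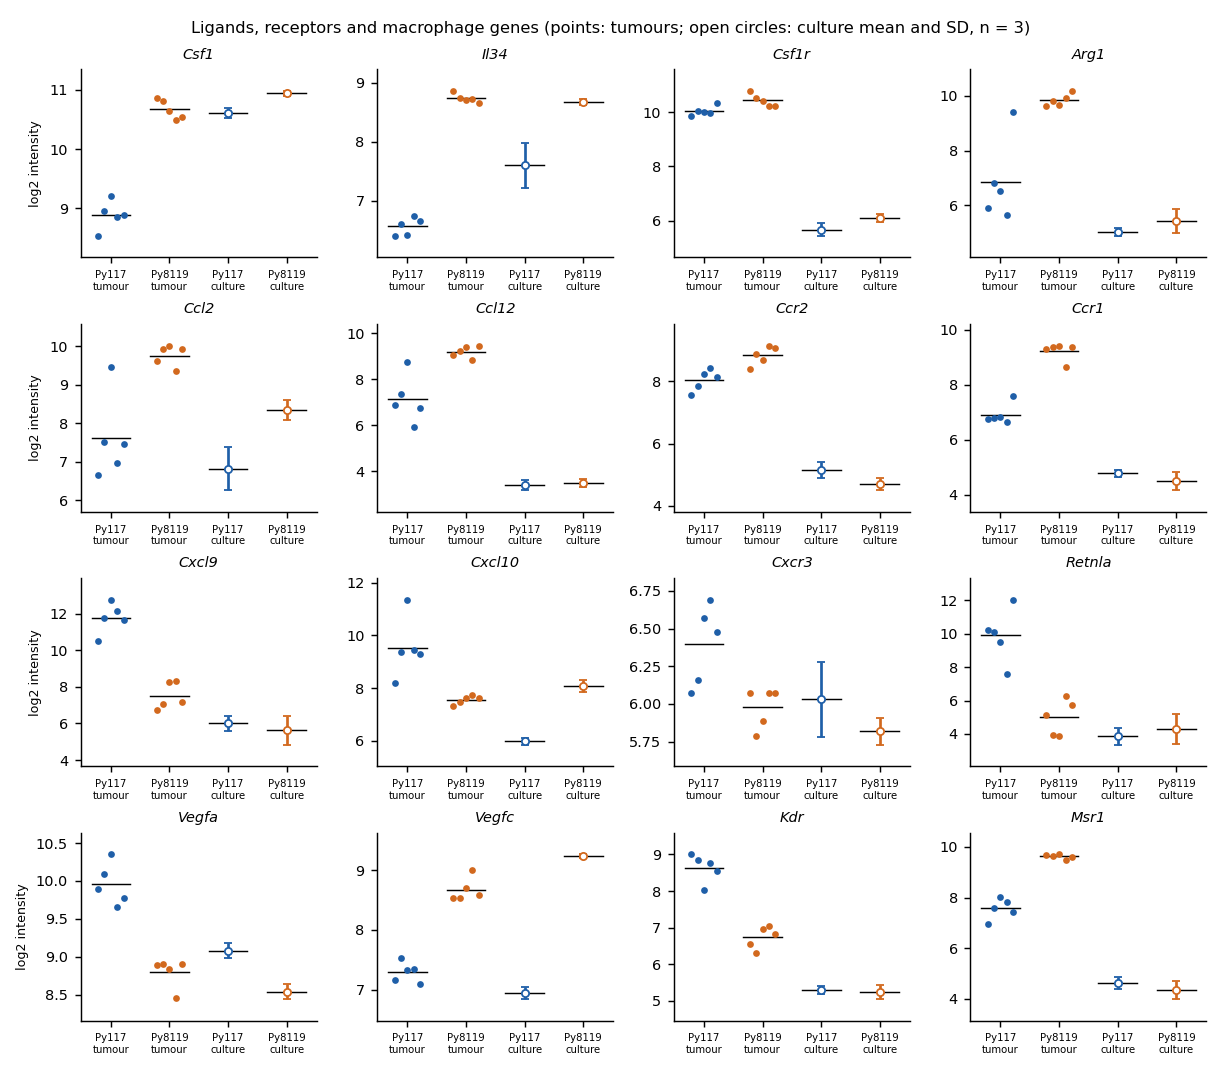
Points are the log2 intensities of single tumours of Py117 (blue) and Py8119 (orange) for 16 ligands, receptors and macrophage genes, open circles with bars are the culture mean and SD (n = 3), and lines are group means. Csf1 and Il34 are higher in all 5 Py8119 tumours, Cxcl9 and Kdr are lower in all 5, and Csf1r, Ccr2, Ccl2 and Cxcr3 overlap.

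Macrophage genes were more often higher than lower in Py8119 tumours. Of 34, 15 were higher and 4 lower, against 21% higher and 16.5% lower of all genes, with a median of 0.29. The share lower was thus no larger than that of all genes. With the fat-cell covariate 9 were higher. The mean of the list overlapped between the lines, at 8.37, 8.51, 8.59, 8.14 and 8.79 in Py117 tumours 1 to 5 and 8.83, 8.67, 8.66, 8.77 and 8.67 in Py8119 tumours 1 to 5. Ccr1, a receptor for inflammatory chemokines, was at 6.75, 6.78, 6.83, 6.63 and 7.58 in Py117 tumours 1 to 5 and 9.28, 9.38, 9.42, 8.64 and 9.35 in Py8119 tumours 1 to 5. Clec4n, the pattern receptor dectin-2, was at 7.04, 7.01, 6.31, 6.99 and 7.55 in Py117 tumours 1 to 5 and 9.67, 9.50, 9.42, 9.36 and 9.80 in Py8119 tumours 1 to 5. Both were under background in culture and higher in Py8119 tumours without overlap, by 2.30 ± 0.17 (adjusted p = 7.16e-09) and 2.57 ± 0.17 (adjusted p = 1.08e-09). Vsig4, a complement receptor of resident macrophages, was at 4.0, 3.85, 3.95, 3.44 and 3.62 in Py117 tumours 1 to 5 and 6.15, 5.72, 5.32, 6.59 and 5.71 in Py8119 tumours 1 to 5. Fcrls, also typical of resident macrophages and microglia, was at 9.42, 9.87, 8.99, 8.26 and 8.87 in Py117 tumours 1 to 5 and 11.57, 11.47, 11.37, 11.28 and 11.13 in Py8119 tumours 1 to 5. Vsig4 was under background in every Py117 tumour, and both were higher in Py8119 tumours, by 2.13 ± 0.24 (adjusted p = 1.51e-06) and 2.28 ± 0.24 (adjusted p = 4.6e-07). Clec5a (2.17 ± 0.15, adjusted p = 2.65e-09), the scavenger receptor Stab1 (1.49 ± 0.17, adjusted p = 1.06e-06), Cx3cr1 (1.38 ± 0.17, adjusted p = 4.04e-06), Trem2 (1.02 ± 0.12, adjusted p = 2.5e-06) and lysozyme, Lyz2 (0.93 ± 0.09, adjusted p = 1.9e-07), were higher as well. Arg1, which uses up arginine, was higher by 2.98 ± 0.51 (adjusted p = 0.000109), and Py117 tumour 5 (9.41) reached almost to the lowest Py8119 tumour (9.61).

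Other myeloid genes were lower. Retnla, a secreted product of alternatively activated macrophages, was at 10.23, 10.10, 9.51, 7.58 and 12.01 in Py117 tumours 1 to 5 and 5.16, 3.94, 3.86, 6.27 and 5.74 in Py8119 tumours 1 to 5. All Py8119 tumours were below all Py117 tumours, of which tumour 4 was the lowest, and the difference was -4.89 ± 0.77 (adjusted p = 5.27e-05). Itgax, the integrin CD11c of dendritic cells and some macrophages, was at 8.57, 8.09, 9.32, 9.25 and 9.55 in Py117 tumours 1 to 5 and 6.55, 7.03, 6.75, 7.22 and 7.24 in Py8119 tumours 1 to 5, lower without overlap (-2.0 ± 0.25, adjusted p = 3.47e-06). Ly6c2, the marker of inflammatory monocytes, was lower (-2.70 ± 0.42, adjusted p = 4.47e-05), and so were Ms4a4c (-1.74 ± 0.33, adjusted p = 0.000303) and Plac8 (-1.65 ± 0.39, adjusted p = 0.00228), while Ccr2, which those monocytes also carry, was higher by 0.79 ± 0.16 (adjusted p = 0.000475). In all, 4 of 12 monocyte genes were higher and 4 lower (2 with dim probe sets left out), with 2 higher under the fat-cell covariate. Adgre1 and Cd68, pan-macrophage markers, were higher by 0.53 ± 0.11 (adjusted p = 0.00052) and 0.60 ± 0.16 (adjusted p = 0.00473), and both calls were lost with the fat-cell covariate.

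Lower levels in the Py8119 tumours marked nearly the whole T cell list. Of its 19 genes, 17 were lower and 0 higher, with a median of -0.98, and the mean level was 6.59, 6.4, 6.63, 7.36 and 7.12 in Py117 and 5.78, 5.69, 5.86, 5.85 and 5.84 in Py8119 tumours. Every Py117 tumour was above every Py8119 tumour, and Py117 tumours 4 and 5 were the highest. Cd4, the co-receptor of helper T cells, also present on some myeloid cells, was at 7.37, 6.90, 6.35, 7.96 and 7.48 in Py117 tumours 1 to 5 and 5.62, 5.81, 5.57, 5.75 and 5.72 in Py8119 tumours 1 to 5, lower (-1.52 ± 0.21, adjusted p = 1.26e-05). Cd8b1 was at 6.87, 6.75, 7.25, 8.25 and 7.56 in Py117 tumours 1 to 5 and 5.94, 5.65, 5.88, 5.63 and 5.54 in Py8119 tumours 1 to 5, lower (-1.61 ± 0.24, adjusted p = 3.04e-05). Neither overlapped, and both came close to background in Py8119 tumours. Lef1, a transcription factor of T cells and of Wnt signalling, was lower (-1.45 ± 0.13, adjusted p = 4.79e-08). With the fat-cell covariate 10 T cell genes were lower, Cd3e and Il7r losing their call, and with dim probe sets left out 11 were.

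Cytotoxic genes were mixed. Of 20, 8 were lower (5 with dim probe sets left out) and 1 higher, with a median of -0.41. Klrk1, which encodes the activating receptor NKG2D, was at 6.55, 6.51, 7.73, 8.05 and 7.11 in Py117 tumours 1 to 5 and 5.76, 5.88, 6.02, 6.01 and 6.12 in Py8119 tumours 1 to 5. Nkg7, a granule membrane protein, was at 7.88, 7.42, 8.51, 8.76 and 8.06 in Py117 tumours 1 to 5 and 6.78, 7.03, 7.12, 7.03 and 7.03 in Py8119 tumours 1 to 5. Both were lower without overlap, with differences of -1.23 ± 0.26 (adjusted p = 0.000827) and -1.13 ± 0.21 (adjusted p = 0.00024). The effector Gzmb was at 6.14, 6.90, 8.93, 6.79 and 6.91 in Py117 tumours 1 to 5 and 6.18, 6.91, 7.22, 6.42 and 6.98 in Py8119 tumours 1 to 5. Its groups overlapped and Py117 tumour 3 was the highest (difference -0.39 ± 0.40, adjusted p = 0.517), as was true of Gzma (-0.82 ± 0.35, adjusted p = 0.078) and perforin, Prf1 (-0.20 ± 0.22, adjusted p = 0.55). With the fat-cell covariate Gzmb and Gzma were called lower, at -1.54 and -1.58, and Gzma also without Py117 tumour 1, at -1.04, and with the replicate number as a block, at -0.82 (adjusted p = 0.00352). Gzmc, another granzyme, was at 6.89, 6.57, 6.22, 6.48 and 6.48 in Py117 tumours 1 to 5 and 7.11, 8.0, 8.38, 7.55 and 8.18 in Py8119 tumours 1 to 5 and was higher in Py8119 tumours without overlap, by 1.32 ± 0.24 (adjusted p = 0.00018). Of 24 regulatory and checkpoint genes, 12 were lower (6 with dim probe sets left out) and 3 higher, with Foxp3 (-1.03 ± 0.18, adjusted p = 0.000125), Pdcd1 (-0.84 ± 0.17, adjusted p = 0.000489) and Il2ra (-1.30 ± 0.23, adjusted p = 0.000148) among those lower. Havcr2 had a difference of 0.05 ± 0.19 (adjusted p = 0.883). Cd274, the ligand PD-L1, was at 7.32, 7.71, 9.23, 8.46 and 8.11 in Py117 tumours 1 to 5 and 7.35, 7.29, 7.30, 7.15 and 7.23 in Py8119 tumours 1 to 5 and differed by -0.90 ± 0.34 (adjusted p = 0.0435), a call lost when any of Py117 tumours 3, 4 and 5 or any Py8119 tumour was left out. Of 11 genes of conventional type 1 dendritic cells, 4 were lower, 2 when any of Py117 tumours 4 and 5 or Py8119 tumours 2 and 5 was left out and 1 with the fat-cell covariate.

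The core list of endothelial genes was lower in Py8119 tumours. All 23 genes measured were lower, from -2.15 to -0.39, with a median of -1.29, and 19 did not overlap. The mean was 8.17, 7.90, 7.41, 7.90 and 7.95 in Py117 and 6.59, 6.48, 6.75, 6.77 and 6.62 in Py8119 tumours. The groups lay apart, and Py117 tumour 3 was the lowest of its line. Cdh5, the cadherin of endothelial junctions, was at 10.65, 10.47, 9.84, 10.46 and 10.70 in Py117 tumours 1 to 5 and 8.51, 8.33, 8.90, 8.95 and 8.64 in Py8119 tumours 1 to 5. Tek, the angiopoietin receptor Tie2, was at 7.78, 7.57, 6.31, 7.36 and 7.05 in Py117 tumours 1 to 5 and 5.54, 5.14, 5.53, 5.85 and 5.29 in Py8119 tumours 1 to 5. Both were lower, with differences of -1.76 ± 0.15 (adjusted p = 3.37e-08) and -1.75 ± 0.21 (adjusted p = 2.31e-06), as were Tie1 (-1.29 ± 0.13, adjusted p = 2.41e-07), Plvap (-1.70 ± 0.15, adjusted p = 3.86e-08), Esam (-1.13 ± 0.13, adjusted p = 2.01e-06) and Pecam1 (-1.63 ± 0.14, adjusted p = 4.71e-08). In culture 1 of the 23 differed. A separate list of 16 endothelial adhesion and tip cell genes went both ways, with 4 higher (1 with the fat-cell covariate) and 9 lower (3 with dim probe sets left out) and a median of -0.38. Its risers were Vcam1, the sterol enzyme Ch25h (1.29 ± 0.32, adjusted p = 0.00321), the tip cell gene Esm1 (0.79 ± 0.16, adjusted p = 0.000501) and the netrin receptor Unc5b (0.74 ± 0.17, adjusted p = 0.00196). Of these, Vcam1 kept its call with the fat-cell covariate and the others were at 0.37, 0.26 and 0.13. The other probe set of Ch25h, under background in both lines, differed by 0.22. Of 15 pericyte and smooth muscle genes 10 were lower (6 with the fat-cell covariate) and 1 higher, the receptor Pdgfrb (0.90 ± 0.13, adjusted p = 1.62e-05), which Py8119 cells also had more of in culture (1.21, adjusted p = 0.00516). Rgs5, a pericyte marker, was lower (-1.60 ± 0.27, adjusted p = 0.000106), a call lost with the fat-cell covariate. Of 9 lymphatic genes 2 were higher and 2 lower (1 with the fat-cell covariate), shares near the 21% and 16.5% of all genes.

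Angiogenic ligands went both ways. Vegfa, the main ligand of Kdr, was at 9.90, 10.09, 10.35, 9.66 and 9.78 in Py117 tumours 1 to 5 and 8.89, 8.90, 8.84, 8.46 and 8.90 in Py8119 tumours 1 to 5, lower in Py8119 tumours (-1.16 ± 0.14, adjusted p = 1.87e-06). Pgf, placental growth factor, was lower (-1.13 ± 0.14, adjusted p = 4.03e-06). Vegfc, which acts on the lymphatic receptor Flt4, was at 7.16, 7.53, 7.32, 7.35 and 7.09 in Py117 tumours 1 to 5 and 8.54, 8.53, 8.70, 9.0 and 8.58 in Py8119 tumours 1 to 5. Vegfd, its close relative, was at 6.13, 6.96, 7.11, 6.09 and 5.75 in Py117 tumours 1 to 5 and 8.08, 7.88, 8.02, 7.89 and 7.65 in Py8119 tumours 1 to 5. Both were higher in every Py8119 tumour, by 1.38 ± 0.10 (adjusted p = 6.35e-09) and 1.5 ± 0.21 (adjusted p = 1.18e-05), and in culture the differences were 2.30 and 2.87. Sema3e, a guidance ligand for plexin D1 on endothelium, was at 6.02, 6.66, 6.49, 7.13 and 6.07 in Py117 tumours 1 to 5 and 8.73, 8.66, 8.83, 9.25 and 8.70 in Py8119 tumours 1 to 5, higher by 2.36 ± 0.17 (adjusted p = 5.91e-09). Of 21 ligands and inhibitors, 8 were higher and 11 lower. Vcam1, an adhesion molecule of activated endothelium and of stromal cells, was at 9.20, 9.02, 9.56, 9.90 and 10.13 in Py117 tumours 1 to 5 and 11.25, 11.44, 11.30, 11.42 and 11.28 in Py8119 tumours 1 to 5. Unlike the endothelial list it was higher, by 1.78 ± 0.16 (adjusted p = 6e-08), and it was higher in Py8119 culture by 3.45 (adjusted p = 1.11e-05).

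Matrix genes were lower, against the direction of the cultures for several. Of 14 interstitial collagens, 8 were lower and 0 higher, all 8 at least 2-fold, with a median of -1.39, and in culture 6 were higher in Py8119 and 2 lower. Without Py117 tumour 2 or 5, 2 collagens were higher. Col3a1, the type III collagen, was at 10.12, 11.41, 11.28, 10.44 and 10.80 in Py117 tumours 1 to 5 and 9.20, 9.18, 9.68, 10.23 and 9.73 in Py8119 tumours 1 to 5. Py8119 tumour 4 lay above Py117 tumour 1, and the difference was -1.20 ± 0.24 (adjusted p = 0.000604) in tumours and 1.69 (adjusted p = 0.00171) in culture. Col4a1 of basement membrane showed the same turn, with -0.64 ± 0.18 (adjusted p = 0.00675) in tumours and 2.64 (adjusted p = 2.02e-05) in culture, but its tumour call was lost with the fat-cell covariate. Sparc, a collagen-binding glycoprotein, was at 11.61 to 11.98 in all 10 tumours, although it was at 7.84 ± 0.25 in Py117 and 11.59 ± 0.11 in Py8119 culture. Its tumour difference was -0.13 ± 0.09 (adjusted p = 0.321) and its interaction -3.87 ± 0.17 (adjusted p = 3.91e-10). Col11a1, a cartilage and tumour stroma collagen, was lower (-4.18 ± 0.16, adjusted p = 1.28e-12), in the direction of culture (-2.04).

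Eln, Nid1 and Lox were lower in Py8119 tumours. Eln, elastin, was at 10.38, 10.87, 10.41, 9.50 and 8.88 in Py117 tumours 1 to 5 and 6.72, 6.68, 6.67, 7.39 and 6.87 in Py8119 tumours 1 to 5. Nid1, which links laminin to collagen IV, was at 10.16, 11.07, 10.48, 10.14 and 10.28 in Py117 tumours 1 to 5 and 7.35, 6.82, 7.52, 8.35 and 7.82 in Py8119 tumours 1 to 5. Lox, the enzyme that crosslinks collagen and elastin, was at 9.11, 10.34, 9.84, 9.52 and 9.97 in Py117 tumours 1 to 5 and 6.56, 6.07, 6.39, 8.19 and 7.33 in Py8119 tumours 1 to 5. None of the 3 overlapped, and Py8119 tumour 4 was the highest of its line for each. The differences were -3.14 ± 0.29 (adjusted p = 1.1e-07), -2.85 ± 0.24 (adjusted p = 3.06e-08) and -2.85 ± 0.40 (adjusted p = 1.44e-05). Of 22 matricellular genes 17 were lower and 4 higher (1 with the fat-cell covariate), with a median of -1.21. Ogn, osteoglycin, was the largest riser at 2.10 ± 0.33 (adjusted p = 5.88e-05), and Fn1, higher by 0.53 ± 0.19 (adjusted p = 0.0346), lost its call without any of Py117 tumours 1, 4 and 5 or Py8119 tumours 1, 2, 4 and 5 and was -0.07 with the fat-cell covariate. Of 18 basement membrane genes, 12 were lower, among them Lama2 (-1.99 ± 0.12, adjusted p = 3.12e-10) and Lama4 (-2.56 ± 0.16, adjusted p = 6.58e-10), and 4 were higher, among them Hspg2 (0.58 ± 0.12, adjusted p = 0.000797). Timp3, an inhibitor of matrix proteases, had a difference of -4.59 ± 0.24 (adjusted p = 6.71e-11) in tumours and of -7.16 in culture. Mmp9, gelatinase B, was at 5.79, 7.33, 6.62, 6.79 and 6.54 in Py117 tumours 1 to 5 and 9.20, 9.32, 9.25, 9.33 and 9.11 in Py8119 tumours 1 to 5, higher without overlap by 2.63 ± 0.21 (adjusted p = 1.17e-08). In the protease list, 12 of 28 were higher (6 with the fat-cell covariate) and 9 lower.

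Fibroblast genes were mostly lower, 12 of 19, with 3 higher (1 with the fat-cell covariate) and a median of -0.92. Cilp, a matrix protein of fibroblasts and cartilage, was at 9.42, 10.15, 9.77, 9.08 and 8.86 in Py117 tumours 1 to 5 and 5.31, 6.01, 6.2, 6.76 and 6.22 in Py8119 tumours 1 to 5. Chl1, a neural cell adhesion molecule, was at 7.89, 8.06, 8.18, 7.91 and 8.16 in Py117 tumours 1 to 5 and 3.95, 4.54, 4.13, 5.64 and 4.44 in Py8119 tumours 1 to 5. Both were near or under background in the cultures and, without overlap in tumours, had differences of -3.36 ± 0.24 (adjusted p = 3.29e-09) and -3.5 ± 0.23 (adjusted p = 1.02e-09). Fap, a protease of activated fibroblasts, Dpt, dermatopontin, and Thy1 had differences of -1.40 ± 0.22 (adjusted p = 3.98e-05), -1.98 ± 0.24 (adjusted p = 2.13e-06) and -1.11 ± 0.16 (adjusted p = 2.62e-05). Pdgfra, a receptor of fibroblasts, was lower in Py8119 tumours (-0.65 ± 0.12, adjusted p = 0.000272) and higher in Py8119 culture by 1.44 (adjusted p = 0.00169). Fat-cell genes were lower for 15 of 20, with 0 higher and a median of -1.2. Their mean was 8.23, 6.4, 6.42, 7.48 and 8.26 in Py117 tumours 1 to 5 and 6.02, 5.84, 5.85, 6.36 and 5.87 in Py8119 tumours 1 to 5. Py117 tumours 2 and 3 lay just above the highest Py8119 tumour. Adipoq, the fat-cell hormone adiponectin, was at 6.85, 4.14, 4.66, 5.85 and 7.45 in Py117 tumours 1 to 5 and 4.53, 4.49, 4.53, 5.47 and 4.56 in Py8119 tumours 1 to 5 and overlapped between the lines (difference -1.07 ± 0.47, adjusted p = 0.0862). Adipoq was called lower without Py117 tumour 2 (-1.48, adjusted p = 0.0084), without Py117 tumour 3 (-1.36, adjusted p = 0.0283) and with array weights (-1.28, adjusted p = 0.0277), and higher with the fat-cell covariate, of which it is a member (1.04). Thrsp, of the same list, was at 10.44 to 10.85 in all 5 Py117 tumours, those low in fat-cell genes included, and at 4.82 to 6.2 in Py8119 tumours. With the fat-cell covariate, differences of several genes described here kept their call and moved by over 1.5 times, to 0.73 for Ogn, 0.74 for Vegfd, 0.94 for Hbegf, 3.37 for Ccl17, -3.17 for Cxcl10, -2.71 for Plac8, -2.21 for Car9, -1.22 for Erbb4, -0.97 for Ocln, -0.94 for Cd4, -0.97 for Id1, -1.27 for Cdkn1a and -1.53 for Cd274.

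Epithelial junction genes were lower in Py8119 tumours, as in culture. Of 19 tight junction genes, 14 were lower and 1 higher (2 without Py117 tumour 5), with a median of -0.84, and 13 were lower in culture. Of 20 desmosome and adherens junction genes, 15 were lower and 1 higher, and 17 and 1 in culture. F11r, whose promoter is shown above, was at 10.37, 10.22, 10.31, 10.24 and 10.26 in Py117 tumours 1 to 5 and 8.02, 7.82, 8.29, 7.99 and 8.02 in Py8119 tumours 1 to 5. Dsp, desmoplakin, was at 9.54, 9.59, 9.03, 9.50 and 9.59 in Py117 tumours 1 to 5 and 4.61, 4.70, 4.91, 4.98 and 4.66 in Py8119 tumours 1 to 5. Both separated the lines without overlap, with differences of -2.25 ± 0.09 (adjusted p = 1.88e-12) and -4.68 ± 0.15 (adjusted p = 2.08e-13) in tumours and of -2.24 and -5.09 in culture. Ocln had a difference of -1.72 ± 0.21 (adjusted p = 3.44e-06) in tumours and of -3.44 in culture. Pkp2, a desmosomal plaque protein, was the exception at 7.0, 6.56, 6.19, 6.96 and 7.21 in Py117 tumours 1 to 5 and 8.01, 7.96, 7.89, 8.32 and 7.91 in Py8119 tumours 1 to 5, higher by 1.23 ± 0.16 (adjusted p = 5.93e-06). A pair of claudins separated the tumours further than the cultures. Cldn2 was at 7.74, 7.46, 6.96, 7.95 and 7.72 in Py117 tumours 1 to 5 and 4.5, 4.42, 4.11, 4.84 and 4.70 in Py8119 tumours 1 to 5, with a difference of -3.05 ± 0.17 (adjusted p = 1.45e-10) against -0.67 in culture. Cldn8 had a difference of -3.18 ± 0.21 (adjusted p = 1.33e-09) against -0.81. The interactions were -2.39 ± 0.26 (adjusted p = 8.55e-06) and -2.37 ± 0.35 (adjusted p = 0.000195).

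Epithelial and mesenchymal transcription factors differed as well. Of 19 epithelial transcription and splicing factors, 14 were lower and 2 higher, with a median of -1.07. Grhl1, a grainyhead factor of epithelium, was at 9.48, 9.06, 7.91, 9.31 and 9.08 in Py117 tumours 1 to 5 and 4.68, 4.68, 4.74, 4.86 and 4.58 in Py8119 tumours 1 to 5. It was lower without overlap (-4.26 ± 0.21, adjusted p = 2.46e-11), with -1.25 in culture and an interaction of -3.01 ± 0.39 (adjusted p = 5.13e-05), and Elf5, which drives the alveolar lineage of the mammary gland, was lower (-2.97 ± 0.15, adjusted p = 5.7e-11) against -1.41 in culture. Ehf was lower (-5.03 ± 0.15, adjusted p = 5.79e-14). Of 15 mesenchymal factors, 11 were higher (7 with the fat-cell covariate) and 2 lower, Sox9 and Foxc1. Zeb1, a repressor that binds E-boxes, was at 6.55, 6.61, 6.36, 6.45 and 6.52 in Py117 tumours 1 to 5 and 8.02, 7.90, 7.78, 7.88 and 7.73 in Py8119 tumours 1 to 5, higher by 1.36 ± 0.08 (adjusted p = 3.23e-10). Snai2 was higher by 1.73 ± 0.15 (adjusted p = 3.55e-08), and the culture differences were 2.40 and 3.58. Hmga2, a chromatin protein of embryonic cells, was at 6.80, 7.51, 7.53, 6.90 and 6.80 in Py117 tumours 1 to 5 and 10.07, 9.99, 10.07, 9.4 and 9.78 in Py8119 tumours 1 to 5. It was higher without overlap by 2.75 ± 0.16 (adjusted p = 2.17e-10), while both cultures were high, at 11.02 ± 0.29 and 10.54 ± 0.10. Of 17 luminal genes, 10 were lower (4 with dim probe sets left out) and 0 higher, and the oestrogen receptor Esr1 had a difference of 0.02 ± 0.08 (adjusted p = 0.881). Of 16 basal genes, 4 were higher and 11 lower (7 with dim probe sets left out), with Itgb4 of hemidesmosomes lower (-2.87 ± 0.16, adjusted p = 1.48e-10) and Itga3, a laminin receptor, higher by 1.88 ± 0.17 (adjusted p = 5.99e-08). Keratins were lower for 6 of 13, 3 with dim probe sets left out.

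Within the ErbB family, Erbb3 was lower and its ligand Nrg1 higher in Py8119 tumours. Of 26 receptor tyrosine kinases, 15 were lower and 5 higher, with a median of -0.51. Erbb3, which signals when bound by neuregulins, was at 9.10, 8.66, 7.97, 9.07 and 9.11 in Py117 tumours 1 to 5 and 5.23, 5.23, 5.62, 5.33 and 5.45 in Py8119 tumours 1 to 5. Nrg1, a neuregulin, was at 7.11, 7.29, 6.75, 7.59 and 6.74 in Py117 tumours 1 to 5 and 9.92, 9.63, 9.67, 9.6 and 9.57 in Py8119 tumours 1 to 5. The receptor was lower in every Py8119 tumour (difference -3.41 ± 0.18, adjusted p = 5.7e-11), the ligand higher by 2.58 ± 0.14 (adjusted p = 7.17e-11), and both had the same sign in culture (-3.14 and 0.72). Erbb4, the other neuregulin receptor, was lower (-1.95 ± 0.22, adjusted p = 9.91e-07), and was under background in both cultures. Hbegf, a ligand of the EGF receptor, was at 6.76, 7.87, 7.94, 7.35 and 6.92 in Py117 tumours 1 to 5 and 9.13, 9.28, 9.21, 8.87 and 9.09 in Py8119 tumours 1 to 5. It was higher by 1.74 ± 0.19 (adjusted p = 6.25e-07) without a called difference in culture (-0.31, adjusted p = 0.253), and Egfr had a tumour difference of -0.09 ± 0.09 (adjusted p = 0.527). Met, the receptor of hepatocyte growth factor, was higher by 1.26 ± 0.10 (adjusted p = 1.15e-08). Ror1, a Wnt5a receptor, was lower (-3.05 ± 0.14, adjusted p = 1.41e-11), as was the neurotrophin receptor Ntrk2 (-2.93 ± 0.23, adjusted p = 1.52e-08).

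Wif1 and Sfrp1, secreted Wnt inhibitors, were lower in Py8119 tumours. Wif1, which binds Wnt proteins, was at 11.24, 10.49, 9.47, 10.98 and 10.92 in Py117 tumours 1 to 5 and 5.62, 5.88, 5.83, 5.95 and 5.74 in Py8119 tumours 1 to 5. Sfrp1, a decoy receptor for Wnt, was at 10.59, 10.79, 10.54, 10.96 and 10.11 in Py117 tumours 1 to 5 and 6.4, 6.09, 5.85, 6.17 and 5.88 in Py8119 tumours 1 to 5. Both were high in all Py117 tumours and close to background in Py8119 tumours, with differences of -4.82 ± 0.25 (adjusted p = 6.61e-11) and -4.52 ± 0.17 (adjusted p = 1.46e-12). Sfrp1 also differed in culture (-3.87), and Wif1 had an interaction of -3.5 ± 0.40 (adjusted p = 1.28e-05). Of the other secreted inhibitors in the Wnt list, Sfrp2 (-1.93 ± 0.28, adjusted p = 1.79e-05), Sfrp4 (-0.91 ± 0.25, adjusted p = 0.00727) and Notum (-0.98 ± 0.20, adjusted p = 0.000546) were lower. The other probe sets of Sfrp2 and Notum, near or under background in both lines, differed by -0.17 and -0.04. Dkk3 (-0.54 ± 0.19, adjusted p = 0.0303) lost its call when any of Py117 tumours 2 and 3 or Py8119 tumours 1 to 3 was dropped, at -0.53 to -0.4, while Dkk2 (-0.24 ± 0.14, adjusted p = 0.19) and Dkk1 (0.01 ± 0.11, adjusted p = 0.979) were not called. Wnt5a was higher by 1.56 ± 0.12 (adjusted p = 1.15e-08). In all, 18 of 34 Wnt genes were lower and 4 higher, 2 with the fat-cell covariate. Of 16 Notch genes, 8 were lower and 3 higher (1 with that covariate), with Notch1 lower (-1.49 ± 0.10, adjusted p = 2.25e-09) and its ligand Jag1 higher by 0.94 ± 0.16 (adjusted p = 8.81e-05). Of 28 TGF-beta and BMP genes, 15 were lower and 4 higher. Bmp4 was at 6.44, 6.91, 6.27, 6.56 and 6.43 in Py117 tumours 1 to 5 and 9.89, 9.69, 9.48, 8.96 and 9.30 in Py8119 tumours 1 to 5, and Id3, a target of BMP signalling, at 7.31, 7.32, 7.06, 6.89 and 6.78 in Py117 tumours 1 to 5 and 8.96, 8.81, 9.17, 9.14 and 8.82 in Py8119 tumours 1 to 5. Both were higher without overlap by 2.94 ± 0.15 (adjusted p = 5.64e-11) and 1.90 ± 0.13 (adjusted p = 2.54e-09), while in culture Bmp4 was lower in Py8119 (-0.66, adjusted p = 0.00303) and Id3 had a difference of 0.19 (adjusted p = 0.235). Id1 went the other way in tumours, with a difference of -0.64 ± 0.11 (adjusted p = 0.000178), and Inhbb, an activin subunit, was lower (-2.17 ± 0.10, adjusted p = 1.11e-11). Of 22 YAP and TEAD targets, 9 were higher and 9 lower.

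Most replication and cell cycle genes were higher in Py8119 tumours. Of 32 replication and cell cycle genes, 25 were higher and 1 lower (2 without Py117 tumour 3 or Py8119 tumour 1), with a median of 0.63, and the mean level was 8.83, 8.84, 8.60, 8.99 and 8.68 in Py117 and 9.45, 9.39, 9.38, 9.50 and 9.38 in Py8119 tumours. The groups did not overlap. In culture 15 were higher and 2 lower. Cdkn2a, the tumour suppressor locus of p16 and p19ARF, was at 8.68, 8.76, 9.17, 8.46 and 8.42 in Py117 tumours 1 to 5 and 10.98, 10.95, 10.97, 10.91 and 10.78 in Py8119 tumours 1 to 5. It had the largest difference of the list, 2.22 ± 0.12 (adjusted p = 8.52e-11), its neighbour Cdkn2b differed by 1.58 ± 0.14 (adjusted p = 3.84e-08), and the single gene that was lower was Cdkn1a, which encodes p21 (-0.73 ± 0.16, adjusted p = 0.00111). Both Cdkn2 genes are inhibitors of the cycle, unlike most of the list. Mki67, the usual proliferation marker, was at 10.67, 10.59, 9.91, 10.73 and 10.73 in Py117 tumours 1 to 5 and 10.59, 10.21, 10.02, 10.16 and 10.18 in Py8119 tumours 1 to 5 and overlapped (difference -0.29 ± 0.14, adjusted p = 0.119). It was called lower without Py117 tumour 3 (-0.45, adjusted p = 0.00149), without Py8119 tumour 1 (-0.38, adjusted p = 0.0402) and with array weights (-0.41, adjusted p = 0.00768), against the direction of most of the list. Top2a (0.68 ± 0.09, adjusted p = 8.58e-06) and the licensing factor Cdt1 (1.19 ± 0.09, adjusted p = 1.09e-08) were higher. Of 19 ribosome biogenesis and Myc target genes, 12 were higher and 1 lower (2 without Py117 tumour 3 or Py8119 tumour 4), with Myc higher by 1.04 ± 0.12 (adjusted p = 1.94e-06). Apoptosis and p53 targets were lower for 10 of 22 and higher for 3, 1 with the fat-cell covariate.

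Cholesterol synthesis was the list with the highest median, 0.85. Of 17 enzymes and regulators, 15 were higher and 0 lower, with the 15 not overlapping, while in culture 1 was higher and 1 lower. Msmo1, a sterol demethylation enzyme, was at 6.93, 7.0, 7.07, 7.11 and 7.23 in Py117 tumours 1 to 5 and 9.09, 9.36, 9.10, 9.14 and 9.21 in Py8119 tumours 1 to 5. Fdps, which makes farnesyl diphosphate, was at 8.26, 8.39, 8.54, 8.24 and 8.14 in Py117 tumours 1 to 5 and 9.77, 9.80, 9.79, 9.98 and 9.84 in Py8119 tumours 1 to 5. Cyp51 was at 7.76, 7.48, 7.53, 8.15 and 7.95 in Py117 tumours 1 to 5 and 8.44, 8.89, 8.88, 8.93 and 9.09 in Py8119 tumours 1 to 5. Each was higher in all 5 Py8119 tumours, by 2.11 ± 0.09 (adjusted p = 2.79e-12), 1.52 ± 0.10 (adjusted p = 1.81e-09) and 1.07 ± 0.14 (adjusted p = 4.31e-06). The cultures of both lines were nearer to the Py8119 than to the Py117 tumours, with list means of 8.83 to 9.17 in the cultures, 8.71, 8.92, 8.80, 8.91 and 8.86 in Py8119 tumours and 7.97, 7.93, 7.91, 8.14 and 8.07 in Py117 tumours. The interaction was called for 11 of the 17. Thrsp, a lipogenic gene of the fat-cell list, moved the other way.

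Other metabolic genes split by pathway. Of 19 amino acid genes, 14 were higher and 1 lower, and 15 and 1 in culture. Psat1, of serine synthesis, was at 7.09, 7.21, 7.10, 7.48 and 6.59 in Py117 tumours 1 to 5 and 9.10, 9.07, 8.97, 9.34 and 9.11 in Py8119 tumours 1 to 5, higher by 2.03 ± 0.13 (adjusted p = 7.16e-10), with Phgdh of the same pathway higher by 1.49 ± 0.14 (adjusted p = 1.2e-07) and Asns by 1.42 ± 0.11 (adjusted p = 1.49e-08). Slc7a5, a leucine transporter, was the one lower (-0.53 ± 0.14, adjusted p = 0.00507), and was higher in Py8119 culture by 0.70 (adjusted p = 0.00573). Hypoxia response genes were lower for 11 of 20 and higher for 2, or 4 without Py117 tumour 3. Car12, a membrane carbonic anhydrase, was at 11.39, 11.11, 10.03, 11.28 and 10.72 in Py117 tumours 1 to 5 and 6.0, 5.91, 6.06, 6.32 and 6.18 in Py8119 tumours 1 to 5. Egln3, an oxygen-sensing prolyl hydroxylase, was at 10.54, 10.32, 10.63, 10.53 and 12.38 in Py117 tumours 1 to 5 and 8.57, 8.49, 8.37, 8.18 and 8.49 in Py8119 tumours 1 to 5. Both were lower without overlap, with differences of -4.81 ± 0.19 (adjusted p = 2.14e-12) and -2.46 ± 0.31 (adjusted p = 4.01e-06), and Egln3 was higher in Py8119 culture by 1.13 (adjusted p = 0.00143). Slc2a1, the glucose transporter induced by hypoxia, had a difference of 0.14 ± 0.15 (adjusted p = 0.549). Of 18 glycolysis genes, 8 were higher (2 with the fat-cell covariate) and 5 lower, and of 23 oxidative phosphorylation genes, 9 were higher (5 with the fat-cell covariate) and 1 lower (2 without Py117 tumour 3 or Py8119 tumour 4). Nqo1, a quinone reductase, was lower (-2.68 ± 0.18, adjusted p = 1.22e-09) and Aldh3a1, an aldehyde dehydrogenase, higher by 2.74 ± 0.22 (adjusted p = 2.14e-08) although the cultures did not separate (-0.24, adjusted p = 0.455).

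Serping1 and Cfb, of the complement system, were lower in Py8119 tumours. Serping1, the C1 inhibitor, was at 9.79, 10.50, 10.88, 10.08 and 10.26 in Py117 tumours 1 to 5 and 6.50, 6.26, 6.68, 7.95 and 7.06 in Py8119 tumours 1 to 5. Cfb, factor B of the alternative pathway, was at 8.57, 8.76, 10.65, 9.46 and 9.37 in Py117 tumours 1 to 5 and 6.12, 5.68, 6.27, 6.97 and 6.47 in Py8119 tumours 1 to 5. Both were near or under background in culture and lower in Py8119 tumours without overlap, with differences of -3.41 ± 0.35 (adjusted p = 3.17e-07) and -3.06 ± 0.36 (adjusted p = 1.8e-06), and C4b was lower (-2.09 ± 0.26, adjusted p = 3.97e-06). C5ar1, the receptor of C5a, was at 5.69, 6.49, 6.15, 6.03 and 6.25 in Py117 tumours 1 to 5 and 7.49, 7.28, 7.24, 7.28 and 6.68 in Py8119 tumours 1 to 5, higher by 1.07 ± 0.15 (adjusted p = 1.75e-05). The list of 26 complement and coagulation genes had 6 higher, a share near the 21% of all genes, and 9 lower, with a median of -0.01. Of 20 phagocytosis and adenosine genes, 6 were higher and 8 lower. Mfge8, a bridge between dying cells and phagocytes, was at 12.51, 12.31, 12.18, 12.21 and 12.37 in Py117 tumours 1 to 5 and 10.42, 10.34, 10.49, 10.59 and 10.31 in Py8119 tumours 1 to 5. It was lower (-1.89 ± 0.14, adjusted p = 4.12e-09) with no called difference in culture (-0.13, adjusted p = 0.386), and Pros1, a ligand of the TAM receptors, was lower (-2.15 ± 0.22, adjusted p = 4.32e-07). Gas6, the other ligand, was lower (-0.58 ± 0.12, adjusted p = 0.00088), while the receptor Axl was higher by 1.57 ± 0.12 (adjusted p = 1.3e-08) and Mertk had a difference of -0.24 ± 0.09 (adjusted p = 0.0547). Mertk was called lower without Py117 tumour 3 (-0.31), without Py8119 tumour 1 (-0.28) and under 4 other settings (-0.29 to -0.24). Cd24a, a surface protein of epithelium, was lower (-3.67 ± 0.16, adjusted p = 4.86e-12), and Cd47 had a difference of -0.20 ± 0.16 (adjusted p = 0.376), called at -0.35 (adjusted p = 0.0468) without Py117 tumour 1.

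For Bpifb4, Krt7 and Car9, wide gaps between the cultures were narrower in tumours. Bpifb4, of the family of lipid-binding airway proteins, was at 10.08 ± 0.11 in Py117 and 5.15 ± 0.35 in Py8119 culture. In tumours it was at 4.64, 5.03, 5.07, 4.71 and 4.65 in Py117 tumours 1 to 5 and 5.32, 5.13, 4.49, 5.36 and 4.99 in Py8119 tumours 1 to 5, around background in all 10, and its interaction was 5.17 ± 0.26 (adjusted p = 2.79e-09). Krt7, a keratin of simple epithelium, differed by -4.99 in culture and by -1.28 ± 0.17 (adjusted p = 6.63e-06) in tumours. Car9, another carbonic anhydrase of hypoxic cells, was at 10.99 ± 0.23 in Py117 and 5.70 ± 0.86 in Py8119 culture. Car9 in tumours was at 8.62, 9.44, 9.97, 8.85 and 7.65 in Py117 tumours 1 to 5 and 8.27, 7.86, 7.83, 7.55 and 7.65 in Py8119 tumours 1 to 5, with overlapping groups and a difference of -1.07 ± 0.30 (adjusted p = 0.00734). Its other probe set differed by -0.28.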

How the data were processed

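Whole-tumour and culture RNA was measured on Affymetrix whole-transcript mouse arrays, 21 in all, and the 10 arrays of Py117 and Py8119 tumours were compared. The deposited values are log2 intensities. The submitters' processing notes name RMA, which corrects, normalizes and summarises probes, and limma, with versions not given. Of 41345 probe sets, 23521 have 1 gene symbol, 1814 several and 16010 none, and only the first kind was used, with the highest mean kept where a gene had several, which left 22180 genes. The table held 0 value columns of no sample.

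Differences were fitted by the lmFit and eBayes functions of limma 3.58.1 under R 4.3.3, with 1 mean per group over the 15 tumour arrays for the tumour contrast, the 6 cultures for the culture contrast and 16 arrays for the interaction. P-values were adjusted by Benjamini-Hochberg over all genes, at a threshold of 0.05. The fits were checked on simulated data. The number of arrays limits the precision. Of 1287 entries in 58 gene lists, 1181 were measured, as 1092 distinct genes. The gene lists and the comparison itself were chosen with earlier results of these data known.

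Named genes were the 10 largest non-overlapping called differences in each direction, the same among genes at background in both cultures, up to 4 called members of each list in each direction, the 10 largest called interactions in each direction, a fixed set of immune, epithelial and vessel genes, and further list members. Promoter windows came from a RefSeq table, with 1 chromosome not used here. Alternatives covered normalization, the filter on dim probe sets, the choice of probe set, the prior, array weights, the arrays in the fit, the replicate number as a block, the threshold, the background level, a fat-cell covariate and leaving out each tumour.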

Additional observations from a re-analysis of the deposited data

Results flagged for a closer look

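A tumour stood apart from the other 4 of its group when its gap to the nearest one, divided by the range of the group, was above 0.71. Chance gives this in about 1 of 20 groups, and 116 pairs of a list and a group and 46 pairs of a gene and a group were looked at. Among Py117 tumours, tumour 3 was low for receptor tyrosine kinases (mean level 7.84, ratio 0.7352), tumour 4 high for amino acid genes (8.51, ratio 0.7956), tumour 1 low for lymphatic genes (6.16, ratio 0.7728) and for B and plasma cell genes (5.06, ratio 0.7629), and tumour 5 high for type 2, mature and plasmacytoid dendritic cell genes (7.66, ratio 0.7493). Among Py8119 tumours, tumour 2 was low for the unfolded protein response (8.54, ratio 0.7782) and tumour 5 low for Schwann cell and nerve genes (6.18, ratio 0.7469).

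Among single genes, Mertk was high in Py8119 tumour 1 (8.71, ratio 0.8914), Vegfa low in Py8119 tumour 4 (8.46, ratio 0.8478), Adipoq high in Py8119 tumour 4 (5.47, ratio 0.9308) and Mki67 low in Py117 tumour 3 (9.91, ratio 0.8284). Py8119 tumour 4 was thus the one that stood apart for both Vegfa and Adipoq.

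Of 23 genes named whatever their result, 8 had a tumour difference that departed from the culture difference by the limma interaction test. The tumour difference minus the culture difference was positive for the macrophage growth factor Csf1 (1.44), Arg1 (2.57) and the epithelial cadherin Cdh1 (1.46). It was negative for the chemokines Cxcl9 (-3.89) and Cxcl10 (-4.05), Cd8a of cytotoxic T cells (-1.49), Cd274 (-1.4) and the endothelial Pecam1 (-1.15). The Cd8a call was lost without any 1 of the 6 cultures (-1.52 to -1.46). The Arg1 call was lost without any 1 array other than Py117 tumour 5 or Py8119 culture 3 (2.27 to 2.65). The Cd274 call was lost without any Py117 culture, Py8119 culture 1 or 3, Py117 tumour 4 or Py8119 tumours 2 to 5 (-1.49 to -1.19).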

How the results depend on the processing

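The 8299 called genes were 7019 to 9158 over other normalizations, arrays, priors, weights, probe sets, a filter on dim probe sets and a fat-cell covariate, and 6549 at an adjusted p under 0.01. Leaving out each tumour gave 7667 to 8349 called, 4298 to 4644 higher and 3369 to 3836 lower, with 745 to 832 and 1134 to 1231 at least 2-fold. The interaction count was 2328 to 3648 when each of the 16 arrays was left out and 1674 at an adjusted p under 0.01. Genes at background in both cultures gave 280 to 392 higher and 600 to 736 lower over the tumours left out. Their higher count of 329 was 214 with the fat-cell covariate, 42 with dim probe sets left out, 706 with median centring, 188 at an adjusted p under 0.01, 182 at the 90th percentile of receptor genes and 753 at the 99th. Their lower count of 694 was 93 with dim probe sets left out, 347 at the 90th percentile and 1482 at the 99th. The drop with dim probe sets left out follows from fewer genes tested, and the cause of the others was not tested.

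With the fat-cell covariate, differences changed sign for Adipoq (1.04), Fabp4 (1.0), Fn1 (-0.07), Itgae (0.1), Mcpt4 (0.14), Medag (-0.05), Nt5e (-0.25) and Isg20 (-0.49). Of 413 named genes with a call, 331 kept it under every alternative that tested them, and 339 kept it with that covariate. The Cdh1 interaction was 0.7, no longer called, with the mean of its probe sets, and that of Arg1 was 2.39 with quantile normalization.

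With the replicate number as a block, 8165 genes were called, 4579 higher and 3586 lower, and 2808 interactions. The labels do not say that a number marks a shared animal or batch. Deviations of same-numbered Py117 and Py8119 tumours correlated at 0.0105, -0.0093, -0.194, 0.0988 and -0.152 across genes. Such correlations cannot exclude a shared animal or batch, so whether a number marks one is not known. Py117 tumours 1 to 5 did not each correlate best with their own number.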
